A study of Mus musculus with 24 samples.

Results

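Inhibitory interneuron genes were examined in the hippocampus of WT and MSK1 KD mice, which were reared either in standard housing (SH) or with environmental enrichment (EE). The set held 10 genes of the 49568 gene symbols counted, taken by symbol from the raw counts of 22 of the 24 libraries. The members were Gad1 and Gad2, the neuropeptide genes Sst, Npy, Vip and Cort, the calcium-buffer gene Pvalb, and the transcription factor genes Lhx6, Dlx1 and Dlx5. All 10 members passed the filter on low counts, along with 18482 genes of the whole table. The 22 leave out library 33B of WT EE and library 34B of KD EE, both of which the study dropped at quality control.

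Each library was made from poly-A RNA of the whole hippocampus of mice that the labels give as 12 weeks old. The study asked whether the kinase activity of MSK1, which lies between growth factor signaling and transcription, is needed for the effect of enrichment on hippocampal gene expression. The 22 libraries comprised WT SH (n = 6), WT EE (n = 5), KD SH (n = 6) and KD EE (n = 5), and 17 of them entered the differential expression analysis of the study. MSK1 KD mice carry, in every cell, an endogenous MSK1 gene in which an aspartate of the N-terminal kinase domain is changed to alanine (kinase dead). All the mice were males on a C57-Bl/6J background backcrossed from C57-Bl/6n, and the WT and the homozygous MSK1 KD mice came from lines that were bred separately, so that genotype and line cannot be told apart. EE mice were born and reared in large, furnished cages with several dams and then lived in male groups, and SH mice were born and kept in conventional cages. The mutation itself cannot be read from gene counts. Neither litter nor cage is given for any library, so that p-values here measure the spread between libraries, and the enriched mice of one cage may not be independent.

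GABAergic interneurons are a minority of hippocampal neurons and restrain the pyramidal and granule cells. Gad1 and Gad2 encode the enzymes that make GABA from glutamate, and the other members mark classes of these cells: Pvalb the fast-spiking cells that contact cell bodies and axon initial segments, Sst the dendrite-targeting cells, Npy several classes including neurogliaform cells, and Vip cells that largely contact other interneurons. Cort encodes cortistatin, a peptide related to somatostatin that is made by part of the Sst and Pvalb cells. Dlx1, Dlx5 and Lhx6 encode homeodomain factors that direct the birth, migration and maturation of interneurons in the ventral forebrain and stay on at low levels in adult cells.

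The peptide genes Sst and Vip are textbook targets of CREB, a transcription factor that binds the cAMP response element and that MSK1 phosphorylates, and the sequences before their start sites are shown for that reason, beside those of Cort and Npy, which varied together with Sst between libraries. The sequences are those of RefSeq on GRCm38.p6, which held start sites for 9 of the 10 members in 12 windows of 250 bases before to 50 bases after a start. Each is written 5′ to 3′ on the strand of the gene. Capitals mark the palindrome TGACGTCA, or TGACG or its complement CGTCA where the palindrome is not complete.
Sst, chr16:23890874-23890903, minus strand, 59 to 30 bases before the RefSeq start, within an Sst exon of GENCODE M21: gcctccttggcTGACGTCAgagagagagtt
Vip, chr10:5639118-5639217, plus strand, the 100 bases before the start: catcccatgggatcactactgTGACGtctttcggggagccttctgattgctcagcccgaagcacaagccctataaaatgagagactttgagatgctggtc
Cort, chr4:149126764-149126863, minus strand, the 100 bases before the start: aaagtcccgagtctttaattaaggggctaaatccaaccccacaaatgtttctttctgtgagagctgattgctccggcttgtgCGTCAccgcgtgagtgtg
Npy, chr6:49822610-49822709, plus strand, the 100 bases before the start: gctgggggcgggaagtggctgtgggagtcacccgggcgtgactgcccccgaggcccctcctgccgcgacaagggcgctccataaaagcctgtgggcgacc

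The whole palindrome TGACGTCA was found, of the members, in the window of Sst, 48 to 41 bases before the start, and in 1.79% of all 32851 windows of the same length. TGACG on either strand, which the palindrome contains, was found in the windows of 4 members (Gad2, Cort, Vip and Sst) and in 20.8% of all windows. It lay 79 bases before the start in Vip, 33 bases before it in Gad2 and 18 bases before it in Cort. TAATTA, a core that many homeodomain factors bind, was found in the window of Cort and in 5.29% of all windows. TATAAA was found in the windows of Lhx6, Gad1 and Vip and in 13.6% of all windows. These matches describe letters in the windows and say nothing of binding in these libraries.

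The counts on genes ranged from 8911999 to 56752074 over the 22 libraries. The lowest counts of any member in any library were 30 for Dlx5 and 43 for Cort, against a detection floor of 3 counts (0.0541 to 0.329 CPM, which are counts scaled to the same total per library), so that every member was detected in every library. Some libraries stood apart in other tissue markers. The summed level of 8 genes of striatal projection neurons was 307 CPM in library 14 (WT SH) and at most 204 CPM elsewhere, and that of 8 thalamic genes was 436 CPM in library 12 (WT SH) and at most 175 CPM elsewhere. The summed level of 11 choroid plexus genes went with housing, with a lowest, median and highest value of 59.3, 74.2 and 1886 CPM in WT SH, 59.8, 4134 and 5308 CPM in WT EE, 39.7, 134 and 2955 CPM in KD SH, and 208, 2248 and 5725 CPM in KD EE. Libraries 5, 12 and 14 are marked in the plots.

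**Figure D1:**
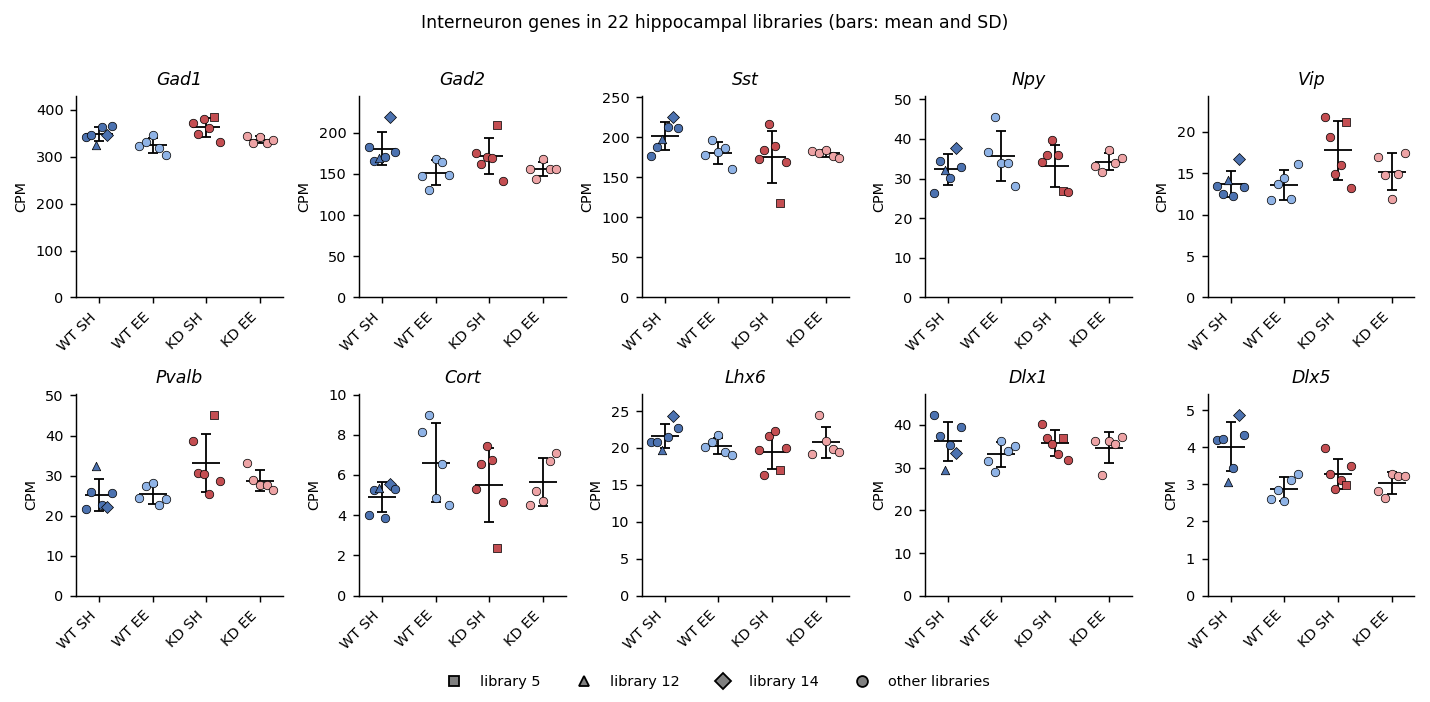
CPM (TMM-scaled, linear axes from 0) of the 10 interneuron genes in each of the 22 libraries, by group, with the mean and SD as bars and libraries 5, 12 and 14 as separate symbols. In each comparison between groups the libraries overlap for every gene, and library 5 has the lowest Sst (118 CPM) and Cort (2.38 CPM) and the highest Gad1 (384 CPM) and Pvalb (45.02 CPM) of the 22 libraries.

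To compare genes with each other, the CPM was divided by the length of the union of exons of each gene. Per length, Sst was the highest member, with a median of 254 CPM per kb and a range of 164 to 312 over the 22 libraries. Its range did not overlap that of any other member. Npy (median 60.0 CPM per kb) and Gad1 (44.95) followed, and their ranges overlapped. Gad2 (28.5 CPM per kb) and Pvalb (26.5) came next, again with overlapping ranges. The range of Pvalb (20.7 to 43.2 CPM per kb) also reached into that of Gad1 (39.7 to 50.3). Cort (7.85 CPM per kb), Dlx1 (6.59), Vip (4.30) and Lhx6 (4.25) formed an overlapping series. Dlx5 was the lowest, at 1.43 CPM per kb (1.13 to 2.15), below the range of Lhx6. The peptide gene Sst was thus at the top in level per length and a developmental factor at the bottom.

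**Figure D2:**
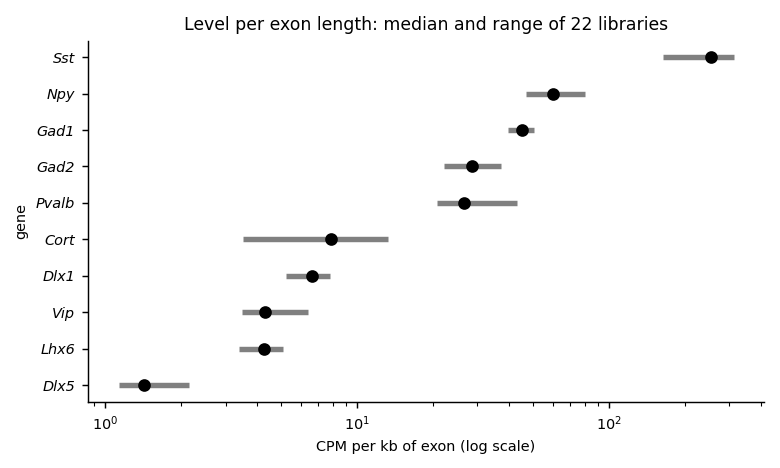
Level of each interneuron gene as CPM per kb of exon (log axis), with the median of the 22 libraries as a point and the lowest to highest library as a bar. Sst (median 254) stands above the other members and Dlx5 (median 1.43) below them.

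The members also differed in how much they varied between libraries. The coefficient of variation over the 22 libraries was smallest for Gad1 (5.94%), Lhx6 (9.48%) and Dlx1 (10.2%). It was 11.9% for Sst, 12.2% for Gad2 and 13.3% for Npy. Dlx5 (18.5%), Vip (19.03%), Pvalb (19.6%) and Cort (27.1%) varied most, of which Dlx5 and Cort had the fewest counts.

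The first comparison asked whether enrichment altered these genes in WT mice. No member passed the threshold used by the study (an adjusted p of 0.05 or less and a log2 fold change of at least 0.38 in size, which is 1.3-fold) in WT EE against WT SH by the quasi-likelihood test of edgeR with Benjamini-Hochberg adjustment, and 0% of the 18482 genes tested passed it. At an unadjusted p under 0.05 stood 2 members, Gad2 and Dlx5, both lower in WT EE, against 8.65% of all genes. This count was between 2 and 5 with 1 library left out, and it was 5 without library 5, where Gad1, Sst and Cort were added. Library 5 is of KD SH and does not enter this difference. It changes the spread that the 4 groups share, while the log2 fold changes stayed at -0.16 for Sst and 0.43 for Cort. The median log2 fold change of the members was -0.0995, with 7 of 10 lower in WT EE, against 0.00619 over all genes. In whole tissue, fewer interneurons, less RNA per interneuron and more RNA of other tissue cannot be told apart, in this or any later difference.

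Dlx5 gave the lowest p of the members. In WT EE its 5 libraries stood at 2.55, 2.60, 2.85, 3.13 and 3.28 CPM, and in WT SH the lowest, median and highest library stood at 3.06, 4.22 and 4.86 CPM. The highest 2 of the WT EE libraries lay within the WT SH range, but only above its lowest library, which was library 12. The log2 fold change was -0.47 ± 0.127 (SE, n = 6 and 5; adjusted p = 0.363 by edgeR), a difference of -27.96% with a 95% interval from -39.9% to -13.7%. Without libraries 12 and 14 it was -0.48 (adjusted p = 0.562).

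The 17 libraries of the study were those left after it removed samples that correlated poorly within their group. Such a choice can by itself narrow the spread within groups and lower p-values. Over these 17 libraries, the difference of Dlx5 in WT passed the threshold. There Dlx5 was 4.22 ± 0.502 CPM (SD, n = 5) in WT SH and 2.87 ± 0.277 CPM (SD, n = 3) in WT EE, with no overlap (3.47 to 4.87 against 2.59 to 3.15), and the log2 fold change was -0.55 ± 0.150 (SE; edgeR adjusted p = 0.0379). It was the only one of the 10 members called in that set, in which 3.55% of 18701 genes were called. At an unadjusted p under 0.05 stood 4 of the 10 members, against 13.7% of all genes. The fold change of Dlx5 thus differed little between both sets of libraries, while its adjusted p moved across the threshold.

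Gad2 was 181 ± 19.5 CPM (SD, n = 6) in WT SH and 152 ± 15.6 CPM (SD, n = 5) in WT EE. The WT EE libraries stood at 129.9, 147, 148, 165 and 169 CPM, and WT SH had a lowest, median and highest library of 166, 174 and 219 CPM. The groups overlapped by 1 library of WT EE. Between them the log2 fold change was -0.25 ± 0.0841 (SE; edgeR adjusted p = 0.409), and it was -0.19 without library 14, which held the highest Gad2 of all 22 libraries.

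Gad1, the other GABA-synthesizing enzyme gene, was 348 ± 14.7 CPM (SD, n = 6) in WT SH, with a lowest, median and highest library of 325, 347 and 366 CPM. In WT EE it was 325 ± 15.999 CPM (SD, n = 5), with libraries at 303, 319, 323, 332 and 346 CPM. The groups overlapped, and the log2 fold change was -0.10 ± 0.0493 (SE; edgeR adjusted p = 0.579).

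Among the peptide genes, the WT groups overlapped in every case over the 22 libraries. Sst was 202 ± 17.7 CPM (SD, n = 6) in WT SH and 180 ± 13.4 CPM (SD, n = 5) in WT EE. Npy was 32.4 ± 3.86 CPM in WT SH and 35.7 ± 6.30 CPM in WT EE, and Vip was 13.7 ± 1.62 and 13.6 ± 1.83 CPM. Cort had a higher mean in WT EE (6.60 ± 1.96 CPM) than in WT SH (4.89 ± 0.744 CPM), in contrast to the direction of Sst, but its WT EE libraries were spread over 4.51, 4.84, 6.55, 8.14 and 8.96 CPM around a WT SH range of 3.88 to 5.53 CPM. The 3 higher of these libraries (33A, 16 and 17) held 5308, 5286 and 4134 CPM of choroid plexus genes, and the 2 lower (35A and 31B) held 59.8 and 70.2 CPM. With the choroid plexus score as a covariate the log2 fold change of Cort in WT fell from 0.43 to 0.16, and over both genotypes it went from 0.24 to -0.07. In KD EE, library 36A was highest in both (7.10 CPM of Cort and 5725 CPM of choroid plexus genes). In KD SH, however, library 3 had the highest Cort (7.43 CPM) with 171 CPM of choroid plexus genes, and library 2 had 6.53 CPM with 2955 CPM. Whether Cort follows choroid plexus content was not tested. In the 17 libraries, chosen by correlation within groups and without 31B and 35A, Cort did not overlap (3.91 to 5.55 CPM in WT SH and 6.58 to 8.97 CPM in WT EE). The log2 fold change there was 0.71 (edgeR adjusted p = 0.0948). Pvalb was 25.1 ± 4.01 CPM in WT SH and 25.4 ± 2.39 CPM in WT EE, a difference well within the spread of either group. Lhx6 (21.6 ± 1.66 and 20.3 ± 1.08 CPM) and Dlx1 (36.2 ± 4.55 and 33.2 ± 2.90 CPM) overlapped as well.

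**Figure D3:**
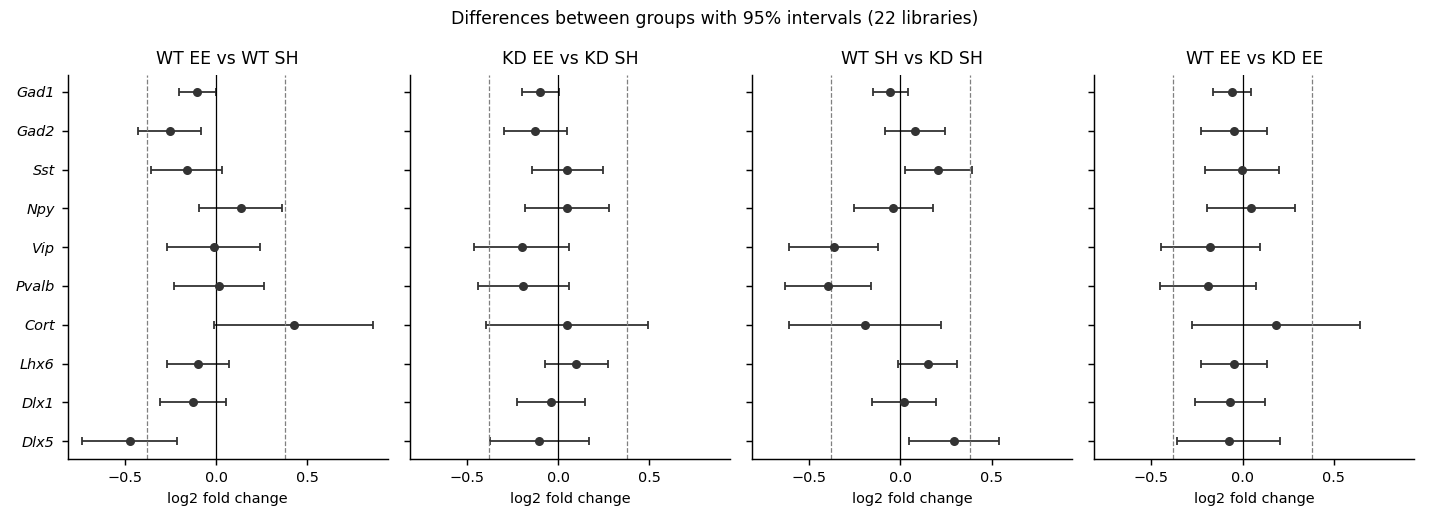
Log2 fold change of each interneuron gene (points) with its 95% interval (bars) in the 4 comparisons between groups, from the edgeR fit of the 22 libraries, with dashed lines at the fold threshold of 0.38 in either direction. In WT EE against WT SH the intervals of Dlx5 and Gad2 lie below 0, in WT SH against KD SH those of Pvalb and Vip lie below 0 and those of Dlx5 and Sst above it, and every interval for WT EE against KD EE includes 0.

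The same question was asked in MSK1 KD mice. In KD EE against KD SH no member was called by edgeR (0% of all genes), and none had an unadjusted p under 0.05, against 9.63% of all genes. Without library 6 there were 3 (Gad1, Gad2 and Vip). The median log2 fold change of the members was -0.0689, with 6 of 10 lower in KD EE, against 0.00278 over all genes.

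Gad1 gave the lowest p of the members in MSK1 KD mice, with a difference of about the size seen in WT. The KD SH mean was 362 ± 20.3 CPM (SD, n = 6), with a lowest, median and highest library of 331, 366 and 384 CPM, and 336 ± 7.57 CPM (SD, n = 5) in KD EE, with libraries at 328, 329, 334, 342 and 345 CPM. The KD EE libraries lay in and just below the lower part of the KD SH range, and the log2 fold change was -0.10 ± 0.0494 (SE; edgeR adjusted p = 0.532). Gad2 was 172 ± 21.8 CPM in KD SH and 156 ± 8.69 CPM in KD EE.

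Vip and Pvalb followed. Vip was 17.8 ± 3.52 CPM (SD, n = 6) in KD SH and, in KD EE, 15.2 ± 2.22 CPM (SD, n = 5), with a log2 fold change of -0.20 ± 0.126 (SE; edgeR adjusted p = 0.612). Pvalb was 33.1 ± 7.26 CPM in KD SH and 28.7 ± 2.62 CPM in KD EE, with a log2 fold change of -0.19 ± 0.121 (SE; edgeR adjusted p = 0.619). Both pairs of groups overlapped, and the value of Pvalb rested largely on library 5, without which it was -0.09.

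Dlx5, which had the largest difference in WT, was 3.29 ± 0.402 CPM (SD, n = 6) in KD SH. In KD EE it was 3.04 ± 0.297 CPM (SD, n = 5). Its KD EE libraries stood at 2.63, 2.83, 3.23, 3.24 and 3.29 CPM, against a lowest, median and highest value of 2.88, 3.20 and 3.97 CPM in KD SH. These groups overlapped for most of their range. Sst was 175 ± 32.5 CPM in KD SH and 180 ± 4.02 CPM in KD EE, where the 5 libraries stood within 174 to 184 CPM. Npy, Cort, Lhx6 and Dlx1 had group means of 33.2 and 34.3, 5.51 and 5.65, 19.5 and 20.8, and 35.8 and 34.6 CPM in KD SH and KD EE, all with overlapping libraries.

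Whether the response to enrichment differed between the genotypes was tested by the interaction of genotype and housing. No member was called by edgeR (0% of all genes), and none had an unadjusted p under 0.05, against 2.04% of all genes. Dlx5 was closest, with an interaction of -0.37 ± 0.182 on the log2 scale (SE; edgeR adjusted p = 1). Lhx6 followed with -0.20 ± 0.117 (SE; edgeR adjusted p = 1). For Sst the interaction was -0.21 ± 0.133 (SE; edgeR adjusted p = 1), and -0.12 without library 5. The lower Dlx5 of enriched WT mice was therefore not shown to be absent in MSK1 KD mice.

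Over both genotypes, EE was compared with SH over 10 and 12 libraries, which are the same libraries as in the comparisons within each genotype. No member was called by edgeR, while 0.146% of all genes were (27 of 18482). At an unadjusted p under 0.05 stood 3 members, Gad2, Dlx5 and Gad1, all lower in EE, against 16.1% of all genes. The log2 fold change was -0.19 ± 0.0596 for Gad2 (SE; edgeR adjusted p = 0.111), -0.29 ± 0.0911 for Dlx5 (SE; edgeR adjusted p = 0.113) and -0.10 ± 0.0349 for Gad1 (SE; edgeR adjusted p = 0.146). The median over the members was -0.0851, against 0.00465 over all genes.

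Both GABA-synthesizing enzyme genes thus had lower means in EE in each genotype. The difference was -6.80% in WT and -6.62% in KD for Gad1, and -16.1% in WT and -8.32% in KD for Gad2, none of which passed adjustment. For Gad2 in KD it was -4.08% without library 5, which held the highest Gad2 of KD SH (209 CPM), a log2 fold change of -0.06 in place of -0.13. The choroid plexus genes moved with housing at the same time. With their score as a covariate, the log2 fold change over both genotypes was -0.13 for Gad2 (edgeR adjusted p = 0.315), -0.24 for Dlx5 (edgeR adjusted p = 0.280) and -0.08 for Gad1 (edgeR adjusted p = 0.350). In KD alone the value of Gad2 was -0.06 with this covariate.

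Genotype was compared within each housing condition. In WT SH against KD SH no member was called by edgeR (0% of all genes), but 4 members, Pvalb, Vip, Dlx5 and Sst, had an unadjusted p under 0.05, against 5.76% of all genes. This count went from 2 without library 14, where Pvalb and Vip were left, to 5 without library 4 or library 12, where Lhx6 was added. The differences ran in both directions, with Pvalb and Vip lower in WT SH and Dlx5 and Sst higher. The median log2 fold change of the members was -0.00979, against -0.00635 over all genes.

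Pvalb was 25.1 ± 4.01 CPM (SD, n = 6) in WT SH, with a lowest, median and highest library of 21.6, 24.2 and 32.3 CPM. In KD SH it was 33.1 ± 7.26 CPM (SD, n = 6), with 25.5, 30.6 and 45.02 CPM. The highest WT SH library was library 12, which carried the thalamic genes. The highest KD SH library was library 5, whose thalamic sum (175 CPM) came next to that of library 12. Libraries 5, 2 and 1 had the highest thalamic sums of KD SH (175, 141 and 134 CPM) and also its highest Pvalb (45.02, 30.7 and 38.6 CPM). Other values ran the other way. In KD EE, library 36A had the highest thalamic sum (129 CPM) and the lowest Pvalb (26.3 CPM). In WT EE, library 31B had the lowest thalamic sum (94.8 CPM) and the highest Pvalb (28.2 CPM). Of the 8 thalamic genes, 0 were lower in WT SH than in KD SH, whereas Pvalb was lower there. Their log2 differences centered on 0.407. Whether Pvalb follows thalamic tissue was not tested. Between the groups the log2 fold change was -0.40 ± 0.115 (SE; edgeR adjusted p = 0.811). It was -0.29 without library 5 and -0.48 without library 12.

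Vip was 13.7 ± 1.62 CPM (SD, n = 6) in WT SH, with a lowest, median and highest library of 12.2, 13.4 and 16.7 CPM, and 17.8 ± 3.52 CPM (SD, n = 6) in KD SH, with 13.2, 17.7 and 21.8 CPM. The ranges overlapped, although 3 KD SH libraries lay above every WT SH library. These were libraries 1, 2 and 5, which also held the highest thalamic sums of KD SH. Library 12 of WT SH, with the highest thalamic sum of all libraries (436 CPM), had a Vip of 14.2 CPM. Whether Vip follows thalamic tissue was not tested. Between the groups the log2 fold change was -0.36 ± 0.119 (SE; edgeR adjusted p = 0.811).

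Dlx5 was 4.02 ± 0.656 CPM (SD, n = 6) in WT SH and 3.29 ± 0.402 CPM (SD, n = 6) in KD SH, with overlapping ranges of 3.06 to 4.86 and 2.88 to 3.97 CPM. The log2 fold change was 0.29 ± 0.120 (SE; edgeR adjusted p = 0.811), and it was 0.23 without library 14, whose Dlx5 was the highest and which carried the striatal genes. WT SH thus had the highest mean of Dlx5 of the 4 groups and the other 3 groups lay between 2.88 and 3.29 CPM.

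Sst was 202 ± 17.7 CPM (SD, n = 6) in WT SH, with a lowest, median and highest library of 177, 204 and 225 CPM. In KD SH it was 175 ± 32.5 CPM (SD, n = 6), with 118, 179 and 216 CPM, where the lowest was library 5. The groups overlapped, and the log2 fold change was 0.21 with library 5 and 0.12 without it.

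The genotypes were then compared in enriched mice. For WT EE against KD EE no member was called by edgeR (0% of all genes) and none had an unadjusted p under 0.05, against 2.61% of all genes. For Pvalb the log2 fold change was -0.19 ± 0.127 (SE; edgeR adjusted p = 1). The value was -0.18 ± 0.132 for Vip (SE; edgeR adjusted p = 1), or -0.37 in the 17 libraries of the study (edgeR adjusted p = 0.710), and -0.06 ± 0.0515 for Gad1 (SE; edgeR adjusted p = 1). The 95% interval for Pvalb ran from -26.9% to 5.13% and that for Vip from -26.8% to 6.71%, which include the differences seen in standard housing (-24.0% and -22.3%). That both genes were past an unadjusted p of 0.05 in SH and not in EE is therefore not a test of a difference between the housing conditions. The interaction had a 95% interval from -0.15 to 0.56 for Pvalb and from -0.18 to 0.55 for Vip on the log2 scale.

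Over both housing conditions, no member was called for WT against KD by edgeR (0% of all genes), and 2 members, Pvalb and Vip, had an unadjusted p under 0.05, against 6.06% of all genes. Both were lower in WT, with log2 fold changes of -0.29 ± 0.0855 for Pvalb (SE; edgeR adjusted p = 0.803) and -0.27 ± 0.0886 for Vip (SE; edgeR adjusted p = 0.803). Gad1 came next with -0.06 ± 0.0349 (SE; edgeR adjusted p = 0.810). DESeq2 also called no member in any of the 7 comparisons. It gave 4 members an unadjusted p under 0.05 in WT EE against WT SH and 4 in WT SH against KD SH, 3 in EE against SH, 2 in WT against KD, 1 in KD EE against KD SH, and 0 in the remaining comparisons.

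The balance between interneuron classes was read from ratios of counts within a library, which do not depend on the scaling of the library. The ratio of Sst to Pvalb counts had a lowest, median and highest value of 6.11, 8.20 and 10.1 in WT SH and of 2.62, 5.95 and 7.43 in KD SH. These groups overlapped, with the lowest WT SH ratio in library 12 and the lowest KD SH ratio in library 5. In WT EE it was 6.45, 6.66, 7.17, 7.25 and 8.25, and in KD EE 5.51, 6.23, 6.40, 6.62 and 6.65. The ratio of Gad1 to Gad2 counts was 1.94 ± 0.200 (SD, n = 6) in WT SH, 2.16 ± 0.242 (SD, n = 5) in WT EE, 2.13 ± 0.164 (SD, n = 6) in KD SH and, in KD EE, 2.16 ± 0.0982 (SD, n = 5), all overlapping. The ratio of Sst to Npy was 6.27 ± 0.561 in WT SH and between 5.14 and 5.26 on average in the other 3 groups.

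The members were then compared with each other across libraries, as deviations of log2 CPM from the group means, so that differences between groups play no part. Of the 45 pairs, 24 had a positive Pearson r, and r ranged from -0.46 to 0.77 with a median of 0.0213. The interneuron genes thus did not vary as 1 block. An adjusted p of 0.05 or less for r was reached by 3 pairs, which joined Sst, Npy and Cort (permutation test with 100000 resamples within groups, two-sided, Benjamini-Hochberg over 45 pairs).

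Npy and Cort varied together most closely, with r = 0.769 (permutation p = 9e-05, adjusted p = 0.00405) and Spearman's rho = 0.792 (permutation p = 0.00015, adjusted p = 0.00675). The value of r was 0.722 after the farthest pair of libraries in Npy, 17 and 35A, was left out. Choroid plexus content also differed within groups and was not taken out of these deviations. The log2 fold change of EE against SH over both genotypes was 0.09 for Npy, and 0.001 with the choroid plexus score as a covariate. For Cort it went from 0.24 to -0.07 and for Sst from -0.06 to -0.09. Whether the correlations follow choroid plexus content was not tested. For Sst and Npy, r was 0.723 (permutation p = 0.00022, adjusted p = 0.00495) and rho 0.669 (permutation p = 0.00332, adjusted p = 0.0747). Without libraries 5 and 3, the farthest in Sst, it was 0.712. For Sst and Cort, r was 0.756 (permutation p = 0.00299, adjusted p = 0.0449) but rho 0.486 (permutation p = 0.0339, adjusted p = 0.305), and r was 0.482 without library 5, so that this relation rested on that library in large part. Within KD EE, whose 5 libraries are too few for a test, r was 0.06 for Npy and Cort, 0.15 for Sst and Npy and -0.96 for Sst and Cort, so that these genes did not rise together in every group.

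**Figure D4:**
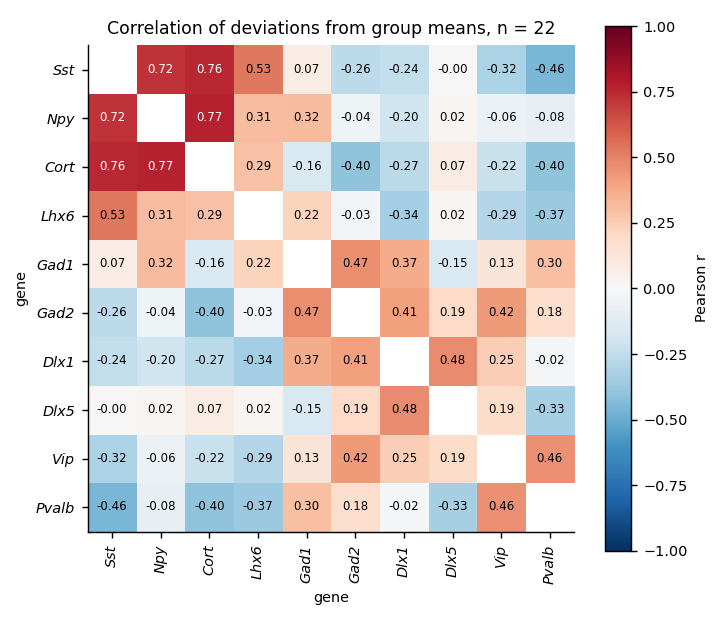
Pearson r between each pair of interneuron genes over the 22 libraries, after the mean of each group was taken out (color scale from -1 to 1, values printed in the cells). Sst, Npy and Cort form the group of highest values (0.72 to 0.77), and Sst with Pvalb has the lowest (-0.46).

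Gad1 and Gad2, which are expressed in the same cells, had r = 0.466 (permutation p = 0.0699, adjusted p = 0.422) and rho = 0.466 (permutation p = 0.0491, adjusted p = 0.368), and r was 0.255 without libraries 6 and 31B, the farthest in Gad1. Sst and Pvalb, which mark separate classes, had r = -0.459 (permutation p = 0.139, adjusted p = 0.456) and rho = -0.234 (permutation p = 0.372, adjusted p = 0.584), and r was -0.03 without library 5. The negative relation of Sst and Pvalb therefore rested on library 5. Dlx1 and Dlx5, neighbors in function in the developing forebrain, had r = 0.476 (permutation p = 0.0498, adjusted p = 0.422) and rho = 0.387 (permutation p = 0.111, adjusted p = 0.489).

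**Figure D5:**
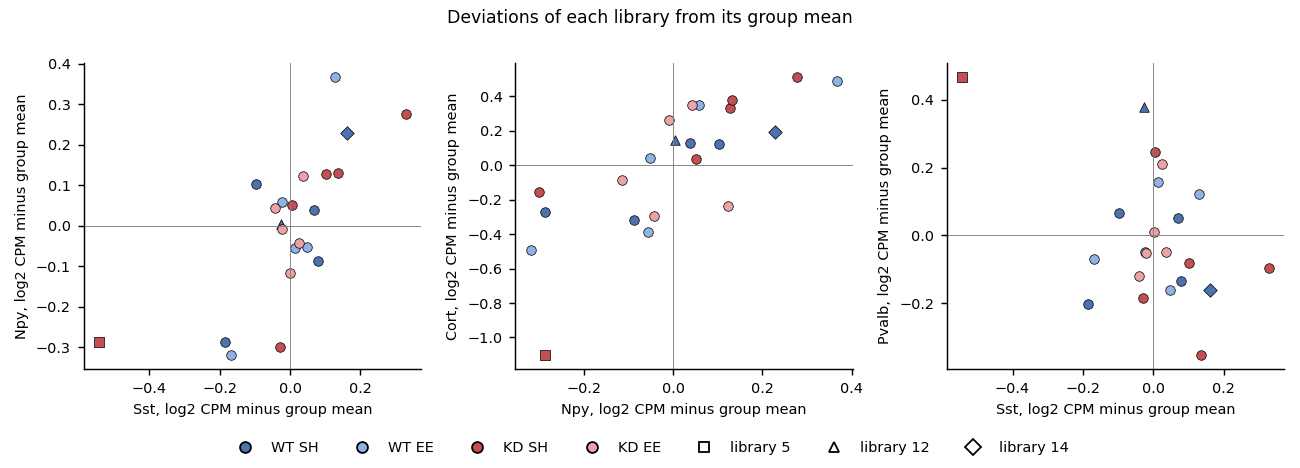
Deviation of each of the 22 libraries from its group mean, in log2 CPM, for Npy against Sst, Cort against Npy and Pvalb against Sst, colored by group with libraries 5, 12 and 14 as separate symbols. Npy and Cort rise together over the 22 libraries (r = 0.769), though not within KD EE, whereas the negative relation of Sst and Pvalb (r = -0.459) depends on library 5, which lies far to the left.

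Of all genes tested, those with the most similar deviations over the 22 libraries were in none of the interneuron lists. For Gad2 they were Clcn3 (r = 0.944), Dnm3 (0.942) and Prkacb (0.921), the closest of any member. For Pvalb they were Jam3 (r = 0.829), Medag (0.795) and Vamp1 (0.786), of which Vamp1 encodes a synaptic vesicle protein. For Sst they were Capns1 (r = 0.863), Msra (0.858) and Thra (0.835), and for Npy Clta (r = 0.788), Rab11b (0.771) and Oxa1l (0.770). Cort was followed by 2310039H08Rik (r = 0.858), Slc12a7 (0.851) and Card19 (0.848), and Vip by 1810022K09Rik (r = 0.859), Dnajb9 (0.841) and Snx6 (0.830). Gad1 was followed by Ankmy2 (r = 0.716), AI597479 (0.712) and Gnai1 (0.670). Lhx6 was followed by Clip4 (r = 0.813), Actn2 (0.795) and Fgf11 (0.793), Dlx1 by Mex3c (0.798), Socs5 (0.765) and Ccng2 (0.763), and Dlx5 by Patl1 (0.769), Dnajc2 (0.767) and Pwp1 (0.748). No member was among the closest 3 genes of another. These are the highest of 18482 values each, and they are given as a description.

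Other genes of the same cells were read from lists that partly contain the members. No gene of any of these lists was called in any of the 7 comparisons of the 22 libraries by edgeR. The list for GABA synthesis, packaging, uptake and breakdown held 7 genes, and all 7 had a lower mean in EE in both genotypes, with a median log2 fold change of -0.119 for WT mice and of -0.0836 for KD mice, against 0.00619 and 0.00278 over all genes. At an unadjusted p under 0.05 and lower in EE stood 3 of the 7 in WT and 1 in KD, against 3.4% and 4.6% of all genes. Most markers of other neurons also had lower means in WT EE. All 6 general neuron genes had a lower mean in WT EE (median -0.0802) and 4 of 6 in KD EE (median -0.0366), and 5 of 6 excitatory neuron genes did in WT EE (median -0.0634), of which Neurod6, chosen after its value was seen, was at -0.30 (edgeR adjusted p = 0.385). Their part in the difference was not tested. Of 16 interneuron transcription factor genes, 15 were tested, and 6 in WT and 2 in KD were lower in EE at an unadjusted p under 0.05, none higher, beside the same 3.4% and 4.6% of all genes. Of 29 interneuron subtype markers, 7 in WT and 2 in KD were lower in EE at that level, none higher, of which the KD count is near the share of all genes. Of 11 receptor genes for the peptides of the members, 2 were lower in WT EE at that level and 0 in KD EE.

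Among the genes of these lists that are not members, Sp8 gave the lowest p for housing. Sp8 encodes a zinc finger factor of interneurons born in the caudal and dorsal ganglionic eminences, and it is also made by migrating neuroblasts. It was 2.43 ± 0.854 CPM (SD, n = 6) in WT SH (1.51 to 3.52), 1.25 ± 0.288 (SD, n = 5) in WT EE (0.974 to 1.68), 2.38 ± 0.866 (SD, n = 6) in KD SH (1.53 to 3.67) and, in KD EE, 1.36 ± 0.418 (SD, n = 5; 0.986 to 2.07), so that the groups overlapped in both genotypes. For Sp8 the log2 fold change came to -0.96 ± 0.262 in WT (SE; edgeR adjusted p = 0.366), -0.73 ± 0.271 in KD (SE; edgeR adjusted p = 0.467) and -0.84 ± 0.189 over both (SE; edgeR adjusted p = 0.0502). Of 5 neuroblast genes, which include Sp8, 4 were lower in EE over both genotypes. At an unadjusted p under 0.05 by edgeR stood 1 of the 5, which was Sp8 itself, against 16.1% of all genes in either direction.

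Genotype gave other leading genes. Nr2f2, which encodes the factor COUP-TFII of caudally derived interneurons, had the lowest p in WT SH against KD SH, with a log2 fold change of 0.27 ± 0.0965 (SE; edgeR adjusted p = 0.811), and in the interaction, with -0.32 ± 0.144 (SE; edgeR adjusted p = 1). Its group means were 31.6 ± 2.49 CPM in WT SH, 27.96 ± 3.09 in WT EE, 26.2 ± 4.28 in KD SH and 28.6 ± 3.67 in KD EE. Kit led WT EE against KD EE with -0.19 ± 0.0709 (SE; edgeR adjusted p = 1). Lamp5, a marker of neurogliaform cells, led WT against KD over both housing conditions with -0.25 ± 0.0938 (SE; edgeR adjusted p = 0.803), and its KD SH libraries ran from 37.4 to 79.7 CPM.

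As a check of the tissue, summed levels of 6 excitatory neuron genes ranged from 5216 to 6784 CPM over the 22 libraries, and the lowest of these values was in library 5. The share that Gad1 and Gad2 together took of the summed counts of 6 general neuron genes was 9.13 ± 0.417% (SD, n = 6) in WT SH, 8.64 ± 0.470% (SD, n = 5) in WT EE, 9.26 ± 0.431% (SD, n = 6) in KD SH and, in KD EE, 8.85 ± 0.432% (SD, n = 5). The libraries of all 4 groups overlapped in this share. Over the 22 libraries it ranged from 7.81% to 9.78%.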

How the data were processed

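The authors trimmed the reads, aligned them with STAR 2.5 to GRCm38 and counted them per gene with HTSeq, without regard to strand, and the deposited files hold these raw counts. Reads outside single genes (14.0% to 18.6% of each library) have lines of their own and were left out. A further table of the authors, of scaled values and comparisons, was not used. Groups came from the labels. In R 4.3.3, edgeR 4.0.16 was used with filterByExpr by group, TMM scaling and 1 quasi-likelihood fit of 4 group means, with adjustment over all genes tested. CPM were scaled by TMM over all genes, and logarithms used a prior count of 2. Exon lengths and overlaps came from GENCODE M21. Dlx1 shares 335 bases (6.21%) with its antisense gene Dlx1as and Lhx6 shares 104 (2.16%) with Gm27953, whose reads cannot be told apart. The tests were tested on simulated data with known changes. Full statistics were given for the 3 members with the lowest p in each comparison, for the leading gene of the interneuron lists, and for the 3 most similar genes of each member. The values of Sst in WT SH against KD SH and the marked libraries 5, 12 and 14 were singled out after their values were seen. The members and lists were chosen with earlier results of these data known. Alternatives were the 17 libraries of the study, all 24 libraries, DESeq2 1.42.0 or its size factors, other filters, no fold threshold, a fit of just the groups compared, no lettered libraries, a choroid plexus covariate, and each library left out. The lettered libraries, whose numbers end in A or B, were 5 of those used, all of EE mice. No SH library carried a letter. What the letters mark is not given by the labels, and any difference that goes with them falls on EE alone. Leaving out libraries 5, 12 and 14 together was chosen after seeing the data.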

Additional observations from a re-analysis of the deposited data

Results flagged for a closer look

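In 40 sets of values (10 genes in 4 groups), the highest or lowest library was checked for a wide gap to the others, and 2 were flagged, where chance flags about 1 in 20. Gad2 in WT SH was 219 CPM (218.87) in library 14, and the nearest library of that group was at 183 CPM, a gap of 0.688 of the whole range. This library also had the highest Sst and Dlx5 and the striatal genes, and whether these go together was not tested. Dlx1 in KD EE was 28.2 CPM (28.166) in library 8, and the nearest library was at 35.5 CPM, a gap of 0.825 of the range.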

How the results depend on the processing

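Across the alternatives, 21 fold changes, those of the 3 members with the lowest p in each comparison, gave 684 values. None changed direction, which that choice favors. Members outside it did change direction. Vip in WT EE against WT SH went from -0.01 to 0.05 without library 14. Sst in KD EE against KD SH went from 0.05 to -0.04 without library 5. Of the 684 values, 1 moved across the threshold, Dlx5 in WT over the 17 libraries of the study. There 1 member instead of 0 was called. No other alternative called a member in any of the 7 comparisons, including each library left out in turn (0 to 0). With 1 library left out, the members at an unadjusted p under 0.05 numbered 2 to 5 in WT EE against WT SH, 0 to 3 in KD EE against KD SH and 2 to 5 in WT SH against KD SH. The correlation of Gad1 and Gad2 was 0.594 (adjusted p = 0.0389) with the group means kept and 0.301 to 0.539 with 1 library left out. The count of all genes called depended more on the setting. For EE against SH over both genotypes it was 27, against 217 by DESeq2 (35346 genes tested), 209 with no filter, 720 in the 17 libraries, 90 in all 24, 45 with at least 10 counts in every library, 44 with the size factors of DESeq2, 80 without lettered libraries, 9 with the choroid plexus covariate, 4 without libraries 12 and 14, 3 without 5, 12 and 14, and 2 to 287 with 1 library left out. For WT EE against WT SH it was 0, against 23 by DESeq2, 7 with no filter, 664 in the 17 libraries, 1 in all 24 and 314 without lettered libraries. For KD EE against KD SH it was 0, against 2 by DESeq2, 325 in the 17 libraries and up to 1 with 1 library left out. For WT SH against KD SH it was 0, against 2 by DESeq2, and for WT EE against KD EE it was 0, against 1 in the 17 libraries and up to 1 with 1 library left out. The lettered libraries were all of EE mice, so that leaving them out took libraries from the EE groups alone. The cause of these changes in the count was not tested. Single libraries moved the log2 fold change of Pvalb in KD EE against KD SH from -0.25 (without library 4) to -0.09 (without library 5), and that of Sst in the interaction from -0.28 (without library 3) to -0.12 (without library 5). Those of Sst in WT SH against KD SH (0.21) and of Gad2 in KD EE against KD SH (-0.13) were 0.12 and -0.06 without library 5. In the 17 libraries, the log2 fold change of Cort in WT EE against WT SH was 0.71 (edgeR adjusted p = 0.0948) and that of Gad2 over both genotypes was -0.24 (edgeR adjusted p = 0.0437), below the fold threshold. No paired analysis was possible because the libraries of different groups share no replicate number. Dlx5 and Cort had the fewest counts, down to 30 and 43 in a library, so that counting error weighs most on them.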

Other observations

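Library 33B (WT EE), which failed the quality control of the study, held levels of the members near those of the other WT EE libraries. Gad1 was 313 CPM, Gad2 158 CPM, Sst 164 CPM, Npy 31.5 CPM, Vip 13.1 CPM, Pvalb 21.99 CPM, Cort 4.86 CPM, Lhx6 18.5 CPM, Dlx1 30.3 CPM and Dlx5 3.05 CPM. Its Pvalb and Lhx6 lay below the range of the 5 WT EE libraries used. Library 34B (KD EE), which also failed, held 4 counts of Gad1, 5 of Gad2, 1 of Sst and 1 of Vip, and 0 of the other 6 members, so that no level was read from it.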
